A study of Mus musculus with 20 samples.

Results

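miR-22 was measured by 1 probe among the 200 probes of a mouse miRNA DNA chip, on 20 arrays of lung, liver, kidney, heart and spleen. The probe was chosen by its difference in the kidney between klotho(-/-) and wild-type mice, so the kidney difference is described below without a test. The other 4 tissues were not used in that choice and were tested. The levels of miR-22 between tissues were tested too, where the kidney level rests on the same kidney arrays, averaged over genotypes. The arrays came from klotho(-/-) males, 5 weeks old, of a purchased klotho-deficient line used as a model of early ageing, and from wild-type littermate males of the same age. Every tissue of either genotype was run on 2 arrays, numbered 1 and 2, which by the study's description are 2 individual mice. All samples were untreated bulk tissue. The defect is not limited to a tissue, the genetic background is not given in the sources used here, and the chip carries no probe for klotho mRNA, so the genotype labels could not be checked from these values.

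MicroRNAs are short RNAs that pair with mRNAs, mainly through a seed at their 5′ end, and lower the translation or stability of those mRNAs. miR-22 is conserved in mammals and abundant in heart, skeletal muscle and liver. Its reported targets include Hdac4, a histone deacetylase that controls cardiac growth, and Sirt1, a deacetylase linked to ageing. In the kidney miR-22 has been reported to restrain BMP-6 and BMP-7, growth factors of tubular epithelium. Klotho is a membrane protein made mainly by kidney tubules, where it acts as a co-receptor for the hormone FGF23.

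The chip names the probe without an arm of the hairpin. In the older nomenclature that name stood for the 3p arm, and the 5p arm was called miR-22*, for which the chip had no probe. Both arms are shown because they decide what the probe could detect, with the seed (bases 2 to 8) in capitals.
miR-22-3p: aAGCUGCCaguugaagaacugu
miR-22-5p: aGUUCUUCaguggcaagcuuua
By RefSeq annotation of GRCm38.p6, the 3p arm lies at chr11:75463772-75463793 and the 5p arm at chr11:75463734-75463755, on the plus strand. The Mir22 hairpin covers chr11:75463716-75463810, within the bounds of the long noncoding RNA gene Mir22hg (chr11:75461539-75466690). Of the 1679 mature mouse miRNAs in the RefSeq table, 0 others had the seed of miR-22-3p. The longest run of identical bases that another mature miRNA had in common with miR-22-3p was 9 bases, found in miR-3966, and the 5p arm had a run of 5. miR-22 therefore stands alone among the annotated miRNAs by its seed.

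The arrays differed in brightness, which bears on every value below. The signal summed over the 200 probes, after the subtraction of background by the authors, was 4162 to 57568 per array. In kidney the mean summed signal of klotho(-/-) arrays was 1.56 times that of wild-type arrays. The same ratio was 1.91 for liver, 1.38 for lung, 1.06 for heart and 0.882 for spleen. The pairs of arrays of a group correlated across tested probes with Pearson's r of 0.937 to 0.995, with the exception of the klotho(-/-) spleen pair (r = 0.778, 96 probes), whose 2 arrays stand apart from each other. Spleen values are therefore also given without each of them. Some marker miRNAs, but not all, were highest in the tissue of their main cells. miR-122a, the hepatocyte miRNA, was 1625 to 4196 in liver and at most 11 elsewhere. miR-1 of striated muscle was 2827 to 3832 in heart, but also 65 to 235 in lung. The epithelial miR-10b was 64 to 156 in kidney and at most 35 elsewhere. Other epithelial miRNAs were divided. miR-30a-5p reached 1571 in lung and 930 in kidney, miR-141 206 and 89, and miR-200c 152 and 74. miR-204 was 5 to 15 in kidney and at most 3 elsewhere. miR-200a reached 242 in kidney and 233 in lung, and miR-200b 217 and 201. miR-194 reached 227 in kidney and 216 in liver, and miR-192 38 and 36.

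miR-22 was among the bright probes of every tissue. In klotho(-/-) kidneys its background-subtracted signal was 622 and 570, against 660 and 598 in wild-type kidneys. The groups overlapped, since klotho(-/-) Kidney 1 lay above wild-type Kidney 2. Of the 91 probes tested in kidney, 72 had both klotho(-/-) arrays above both wild-type arrays, and 4 had both below. In klotho(-/-) lungs it was 1233 and 1035, against 1161 and 467 in wild-type lungs. In klotho(-/-) livers it was 478 and 390, against 228 and 283 in wild-type livers, and here both klotho(-/-) arrays were above both wild-type arrays. That held for 50 of the 61 probes tested in liver. Hearts gave 1151 and 690 in klotho(-/-) mice, against 847 and 1065 in wild-type mice. Spleens gave the lowest signals, 129 and 86 in klotho(-/-) mice, against 198 and 80 in wild-type mice. On the dimmest array miR-22 was still 5.26 times the lowest probe before subtraction, and on the brightest 67.4 times. In lung, heart and spleen, as in kidney, the signals of the genotypes overlapped.

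**Figure D1:**
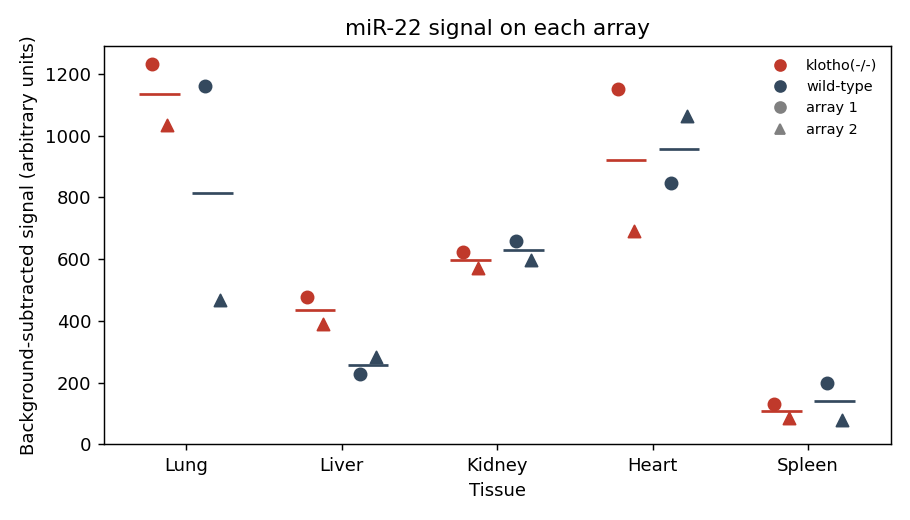
Background-subtracted signal of miR-22 in arbitrary units (vertical axis) on each of 20 arrays, by tissue (horizontal axis), with klotho(-/-) in red left of wild-type in dark blue; circles are array 1, triangles array 2 and lines the mean of 2 arrays. Only in liver are both klotho(-/-) arrays (478 and 390) above both wild-type arrays (228 and 283), as for 50 of the 61 probes tested there. The kidney arrays lie between 570 and 660.

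In the kidney the mean signal of miR-22 was close to the same in both genotypes, while that of most other miRNAs was higher in klotho(-/-) mice. The ratio of mean signals, klotho(-/-) over wild-type, was 0.947 for miR-22, and 0.942 and 0.952 for the arrays numbered 1 and 2. The median ratio of the 91 probes tested in kidney (mean signal of at least 10) was 1.49, so that miR-22 stood at 0.634 of that median. Of the 91 probes 9 had a ratio below 1, which is 9.89%. Among the 43 probes with a mean signal of at least 100 there were 2, miR-22 and miR-194, a miRNA of kidney and gut epithelium. miR-194 was 183 and 182 in klotho(-/-) kidneys, against 219 and 227 in wild-type kidneys, and its ratio of 0.822 was the lowest of these 43. Whether the brighter klotho(-/-) arrays carry more miRNA or only more label cannot be told apart from these files, and a lower level of miR-22 in klotho(-/-) kidney holds relative to the other probes, not in the signal itself. In bulk kidney, fewer cells that make miR-22 and less miR-22 per cell cannot be told apart either.

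**Figure D2:**
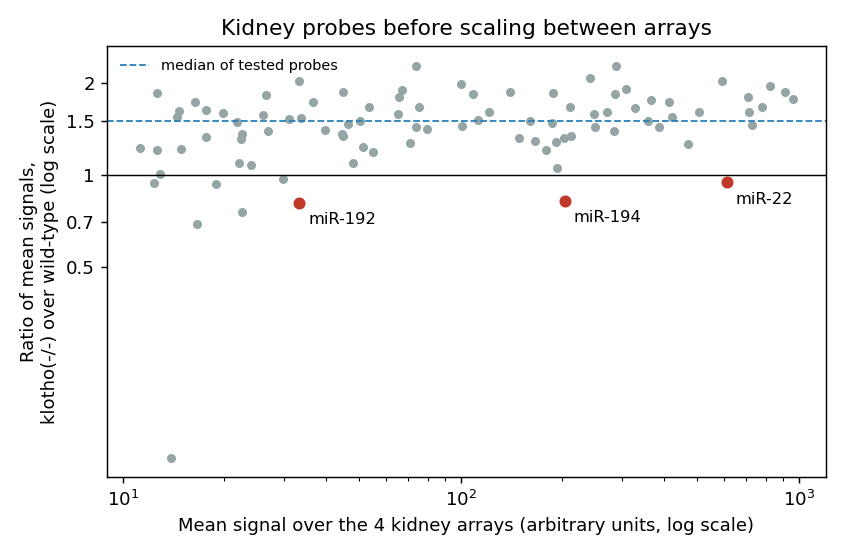
Each point is 1 of the 91 probes tested in kidney, with its mean signal over 4 arrays on the horizontal log axis and the ratio of mean signals, klotho(-/-) over wild-type, on the vertical log axis, before any scaling between arrays. The dashed line is the median ratio of 1.49, and miR-22 (0.947), miR-194 (0.822) and miR-192 (0.810) in red lie below 1.

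The same 4 kidney values, which chose the probe, are given here on scales taken within each array and add no support to it. miR-22 was the probe of rank 10 and 9 from the brightest on klotho(-/-) kidney arrays, against rank 3 and 6 on wild-type kidney arrays. It held 2.58% and 3.18% of the summed signal in klotho(-/-) kidneys, against 5.02% and 4.34% in wild-type kidneys. Its signal was 6.19 and 6.81 times that of the median tested probe in klotho(-/-) kidneys, against 11.7 and 9.78 times in wild-type kidneys. On each of these measures the 2 genotypes were apart, and how many of the 91 kidney probes were so was not counted. After quantile normalization of the 4 kidney arrays, which gives probes of equal rank equal values, the log2 level was 9.07 and 9.18 in klotho(-/-) kidneys, against 9.80 and 9.64 in wild-type kidneys, with an SD of 0.075 and 0.11 (n = 2 each). The log2 difference was -0.59, a fold of 1.51 lower in klotho(-/-), with no test since this difference chose the probe. The genotypes did not overlap, which held for 37.4% of the 91 kidney probes on this scale. It was the second lowest of 91, below it only miR-194 at -0.76, and above it came miR-291a-3p at -0.50 and miR-103 at -0.36. The median of the 91 was 0.018.

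The probes nearest to miR-22 in brightness show the contrast on the same arrays. miR-30a-5p, of a family abundant in renal epithelium, was 930 and 796 in klotho(-/-) kidneys, against 520 and 671 in wild-type kidneys. miR-30d was 911 and 839 in klotho(-/-) kidneys, against 467 and 623 in wild-type kidneys. let-7d, of the growth-restraining let-7 family, was 1181 and 644 in klotho(-/-) kidneys, against 554 and 461 in wild-type kidneys. These 3 probes just above miR-22 had ratios of 1.45 to 1.80. The 3 probes just below it, let-7b, miR-24 and miR-16, had ratios of 2.02, 1.60 and 1.26, of which only miR-16 (546 and 501 in klotho(-/-), against 428 and 405 in wild-type) came closer to the ratio of miR-22.

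The kidney difference depended on the scaling. With median scaling of the tested probes it was -0.45, and without scaling -0.072, as in the plain signals. With quantile normalization over all 20 arrays it was -0.66. Without klotho(-/-) Kidney 1, the brightest kidney array, the quantile-normalized difference was -0.43, and without wild-type Kidney 2 it was -0.70. It was below 0 under all 16 alternatives, from -0.70 to -0.072. All of them reuse the kidney arrays that chose the probe. Several, such as the filters on dim probes and the blocks, cannot change this difference and left it at -0.59. The count of signs therefore adds no support.

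Marker miRNAs of other cell types were read on the same kidney arrays. The hepatocyte miR-122a was at 4 to 5 in klotho(-/-) kidneys and at 4 in wild-type kidneys, and the islet miR-375 at 2 to 3 in klotho(-/-) kidneys and at 2 in wild-type kidneys. The summed signal of 5 striated muscle miRNAs was 13 to 16 in klotho(-/-) kidneys and 12 to 37 in wild-type kidneys, and that of 4 leukocyte miRNAs was 23 on both klotho(-/-) arrays and 17 to 26 in wild-type kidneys. Of the red cell list miR-144 was on the chip, at 19 and 19 in klotho(-/-) kidneys, against 37 and 14 in wild-type kidneys. These lists were near the floor of the chip with sums below the signal of miR-22 on every kidney array. The endothelial pair miR-126-3p and miR-126-5p summed to 266 to 330 in klotho(-/-) kidneys and 197 to 220 in wild-type kidneys, and the 4 smooth muscle and fibroblast miRNAs on the chip to 793 to 1018 in klotho(-/-) kidneys and 537 to 608 in wild-type kidneys. Of 10 kidney epithelial miRNAs 9 were on the chip and summed to 1670 to 1936 in klotho(-/-) kidneys and 1219 to 1462 in wild-type kidneys. The 8 that could be tested had a median log2 difference of -0.11, from -0.76 for miR-194 to 0.16 for miR-200c. The part of cell composition in the kidney difference was not tested.

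Outside the kidney miR-22 passed the test in 0 of 4 tissues. The test was limma on quantile-normalized log2 values, 1 model for all 20 arrays, with Benjamini-Hochberg adjustment over the probes tested in the tissue, and 0 tissues had an unadjusted p under 0.05. For lung the log2 difference, klotho(-/-) minus wild-type, was 0.07 ± 0.12 (SE, n = 2 arrays per genotype, limma adjusted p = 0.820, 95% interval -0.20 to 0.34), where 7.96% of 113 probes were called. In heart it was 0.11 ± 0.12 (limma adjusted p = 0.761, interval -0.16 to 0.38), where 5% of 100 were called. Wild-type Heart 2 and both klotho(-/-) hearts held rank 4 and so received equal values. The heart difference came from wild-type Heart 1 alone, and without that array it was 0. In spleen the log2 difference was -0.02 ± 0.12 (limma adjusted p = 0.922, interval -0.29 to 0.25), although 30.2% of 96 probes were called there. Without klotho(-/-) Spleen 1 the spleen difference was -0.15 and without klotho(-/-) Spleen 2 it was 0.12, and neither passed (limma adjusted p = 0.378 and 0.473). Without wild-type Spleen 1 it was 0.14 (limma adjusted p = 0.511). In klotho(-/-) spleens the red cell miR-144 was at 12 to 13, against 263 to 338 in wild-type spleens. The 4 leukocyte miRNAs summed to 267 to 596 in klotho(-/-) spleens, against 592 to 986 in wild-type spleens, which overlap. Their log2 differences ran from -0.79 for miR-142-3p to 0.10 for miR-150. The 4 smooth muscle and fibroblast miRNAs summed to 598 to 1218 in klotho(-/-) spleens, against 362 to 697 in wild-type spleens, which overlap. Of these 4, 3 were called higher (limma), beside 7 called higher and 22 called lower among all 96 spleen probes. The islet miR-375 was at 13 to 130, against 5 on both wild-type arrays. The klotho(-/-) spleen arrays behind these values stood apart from each other (r = 0.778). The part of these cells in the spleen value of miR-22 was not tested. The intervals of lung, heart and spleen each reach to both sides of 0. Their SE is pooled over all tissues, including liver, where equal ranks gave a spread of 0. Both klotho(-/-) lungs also had equal ranks. With each tissue fitted alone the SE was 0.12 in lung, 0.085 in heart, 0.18 in spleen and 0.0077 in liver.

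Liver could not be read in the same way, since equal ranks there covered all of its arrays. miR-22 was the second brightest probe, after miR-122a, in each of the liver arrays of both genotypes. Probes of equal rank receive equal values, and the normalized difference is 0 by construction (limma adjusted p = 1), and 4.92% of the 61 tested probes were called. The ratio of its mean signals was 1.70, below the median ratio of 1.84 of the 61 probes. Relative to the median tested probe, miR-22 was 6.57 and 8.19 times as bright in klotho(-/-) livers, against 9.69 and 7.85 times in wild-type livers, which overlap. With median scaling the liver difference was 0.20 ± 0.25 and without scaling 0.66 ± 0.40, neither of which passed (limma adjusted p = 0.639 and 0.339). The higher liver signals of klotho(-/-) mice accompanied a similar difference of the whole array.

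**Figure D3:**
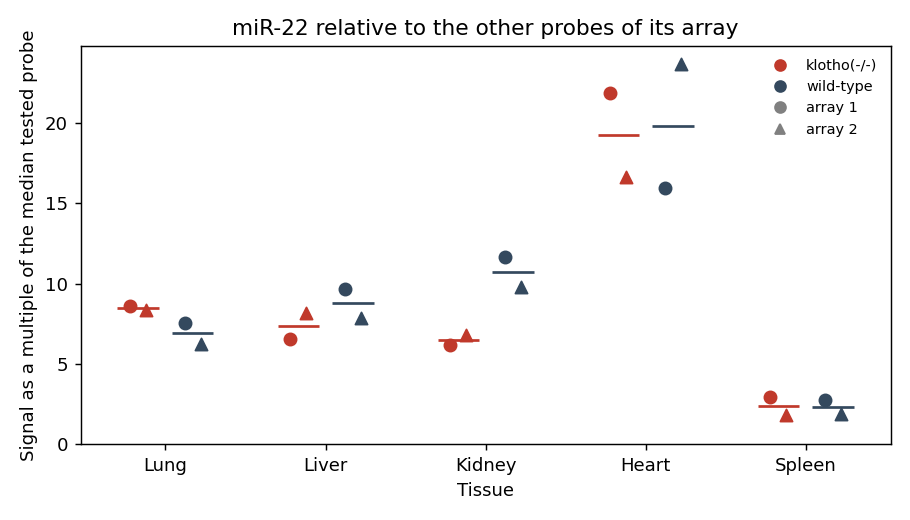
Signal of miR-22 as a multiple of the median tested probe of the same array (vertical axis), by tissue, with klotho(-/-) in red left of wild-type in dark blue; circles are array 1, triangles array 2 and lines the mean of 2 arrays. In kidney the klotho(-/-) arrays (6.19 and 6.81) lie below the wild-type arrays (11.7 and 9.78), and in liver, heart and spleen the genotypes overlap.

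By the same measure lung went the other way, by a small margin. miR-22 was 8.62 and 8.39 times the median tested probe in klotho(-/-) lungs, against 7.58 and 6.27 times in wild-type lungs. The ratio of its mean signals in lung was 1.39, beside a median of 1.32 for the 113 tested probes, of which 70 had a lower ratio. How many lung probes were apart by this measure was not counted. After quantile normalization 40.7% were apart, and miR-22 overlapped. Its share of the summed signal overlapped, at 2.14% and 2.08% in klotho(-/-) lungs, against 2.25% and 1.80% in wild-type lungs, as did its ranks of 18 and 18 in klotho(-/-) lungs, against 17 and 19 in wild-type lungs. In hearts it was 21.9 and 16.7 times the median probe in klotho(-/-) mice, against 15.96 and 23.7 times in wild-type mice. In spleens it was 2.94 and 1.79 times the median probe in klotho(-/-) mice, against 2.78 and 1.87 times in wild-type mice. In hearts and spleens the spread between mice of 1 genotype was larger than the difference between genotypes.

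Over lung, liver, heart and spleen the mean log2 difference was 0.04 ± 0.06 (SE, n = 8 arrays per genotype from 2 mice, limma adjusted p = 0.668, interval -0.09 to 0.18), in a comparison that called 23.7% of the 59 probes tested in all 4 tissues. Here the tissues of 1 mouse count as separate samples, and with a random block for the mouse the limma adjusted p was 0.688. The F test that the 4 differences are equal did not pass for miR-22 (limma adjusted p = 0.934), with 22% of 59 probes called. The liver value of 0 enters both of these tests. Whether the kidney difference departs from the other tissues was not tested, since it chose the probe.

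**Figure D4:**
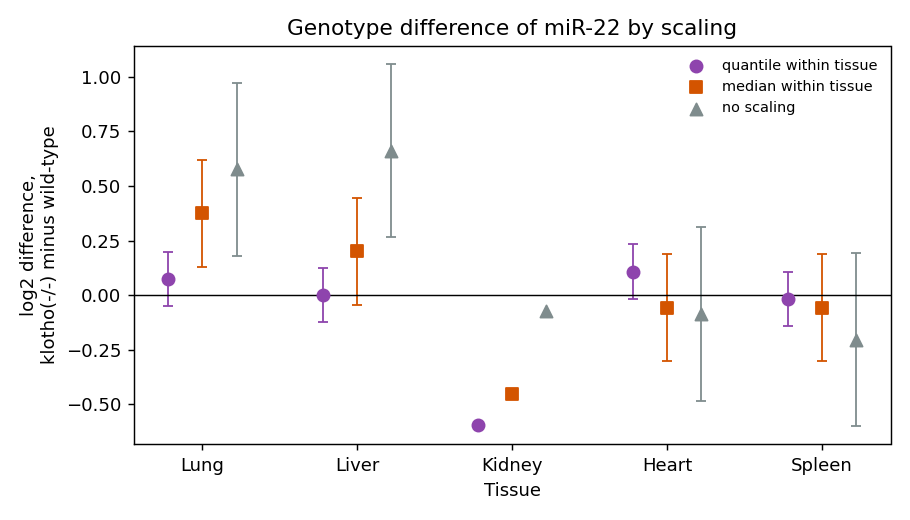
Log2 difference of miR-22, klotho(-/-) minus wild-type (vertical axis), by tissue under quantile normalization within the tissue (circles), median scaling (squares) and no scaling (triangles); bars are the SE of the limma model, and kidney has no bars because it was not tested. Kidney is at -0.59, -0.45 and -0.072, and the lung, liver, heart and spleen values were not called under any of these scalings.

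The level of miR-22 differed between tissues. By rank on the array, which no scaling changes, liver had it as probe 2 on every array, with 4 to 6 in heart, 3 to 10 in kidney, 17 to 19 in lung and 22 to 30 in spleen. After quantile normalization over all 20 arrays liver had a mean log2 level of 10.58, heart of 9.89 (9.74 to 9.94), kidney of 9.75 (9.36 to 10.42), lung of 8.80 (8.68 to 8.87) and spleen of 8.13 (7.86 to 8.43). These levels are averaged over both genotypes, which is a different contrast from the one that chose the probe. The kidney level nevertheless comes from the arrays used in that choice. Equal ranks gave miR-22 an SD of 0 in both liver groups, in klotho(-/-) lung and in klotho(-/-) heart. These values of 0 enter the pooled SE of all comparisons of levels below, whose SE and p therefore do not measure the spread between mice alone. Liver was above heart by 0.69 ± 0.16 (SE, n = 4 arrays per tissue, limma adjusted p = 0.00177), where 28.7% of 108 probes were called higher, but this turned with the scaling. With median scaling over all arrays the difference, liver minus heart, was -0.79 (limma adjusted p = 0.000953), and without scaling -1.34 (0.000417). Heart and kidney did not differ beyond their spread (0.14 ± 0.16, limma adjusted p = 0.535), and 13.9% of probes were called higher in heart. With median scaling heart was above kidney by 0.69 (limma adjusted p = 0.00405). Kidney was above lung by 0.95 ± 0.16 (limma adjusted p = 0.000193, with 24.1% called higher; 0.32 and 0.105 with median scaling, -0.55 and 0.0853 without scaling), and lung above spleen by 0.66 ± 0.16 (limma adjusted p = 0.00185, with 40.7% called higher; 1.56 with median scaling and 2.53 without).

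Set against the mean of the other 4 tissues, miR-22 was higher in liver by 1.44 ± 0.12 (SE, n = 4 arrays, limma adjusted p = 2.64e-07), in heart by 0.58 ± 0.12 (limma adjusted p = 0.00135) and in kidney by 0.40 ± 0.12 (limma adjusted p = 0.0167). Of the 108 tested probes 23.1% were called higher in liver, 23.1% in heart and 24.1% in kidney. It was lower in lung, with a difference of -0.79 ± 0.12 (limma adjusted p = 9.69e-05), where 33.3% of probes were called lower, and in spleen, with -1.62 ± 0.12 (limma adjusted p = 8.21e-08), where 46.3% were. The call for kidney was lost without klotho(-/-) Kidney 2 (0.37) or wild-type Kidney 1 (0.23). With wild-type arrays alone kidney was at 0.75, given without a test because the wild-type kidney values helped to choose the probe. The order of all tissues but spleen rested on the scaling. Without scaling the difference from the other tissues was 1.11 for heart, 1.10 for lung, 0.42 for kidney and -0.57 for liver, as in the plain signals, where hearts had 690 to 1151, lungs 467 to 1233, kidneys 570 to 660 and livers 228 to 478. Median scaling over all arrays put heart at 1.27 and kidney at 0.40, above liver at 0.27 and lung at 0.0026, of which the last 2 did not pass (limma adjusted p = 0.0724 and 0.985). Spleen was lowest on every scale used.

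The 5 probes whose pattern over the 20 arrays was most like that of miR-22 were miR-101a (Pearson's r = 0.851), miR-185 (0.823), miR-130b (0.748), miR-194 (0.735) and miR-130a (0.674), out of 57 probes with a mean signal of at least 10 in every tissue. The 20 points share arrays and mice and fall into 5 tissues, so r describes mainly the order of tissues and has no p. After the mean of each tissue was taken out, r was 0.725 for miR-194, and 0.113 to 0.360 for the other 4. These values include the kidney arrays that chose miR-22, and over the other 16 arrays r was 0.481 for miR-194 and 0.203 to 0.351 for the other 4. Without the liver arrays r was 0.804 for miR-101a, 0.778 for miR-185, 0.614 for miR-130b, 0.475 for miR-194 and 0.468 for miR-130a. The scaled kidney differences of the 5, from -0.76 for miR-194 and -0.19 for miR-185 to -0.06 for miR-101a, are a description, since the kidney arrays entered both choices. Of all 91 kidney probes 46.2% were below 0. The mature sequences, from RefSeq for GRCm38.p6, are shown to set their seeds (capitals) beside that of miR-22-3p. For miR-185 none is shown.
miR-101a-3p: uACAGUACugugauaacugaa
miR-130b-3p: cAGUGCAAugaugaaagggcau
miR-194-5p: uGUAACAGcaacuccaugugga
miR-130a-3p: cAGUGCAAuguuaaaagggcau
miR-130a and miR-130b had the same seed, and 0 of these 4 had the seed of miR-22-3p or a common run of more than 5 bases with it. The arms shown are those for which the chip's older names stood.

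**Figure D5:**
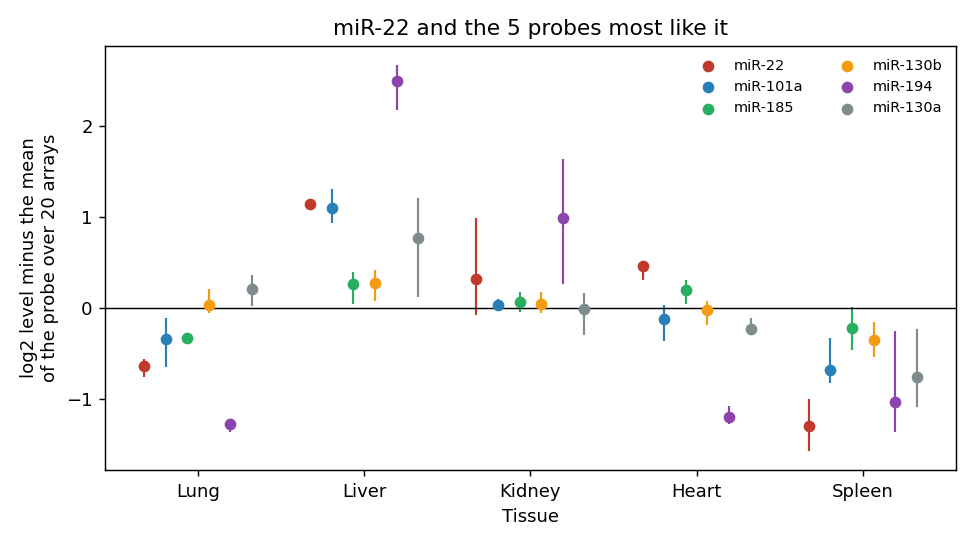
Log2 level of miR-22 and of the 5 probes most like it, each minus its own mean over 20 arrays (vertical axis), by tissue; points are means of 4 arrays of both genotypes and lines run from the lowest to the highest array. miR-22 and miR-101a (r = 0.851) are both high in liver and low in spleen, while miR-194 parts from miR-22 in heart.

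miR-22 belongs to the miRNAs reported to target Sirt1. Of 8 others listed as such, 7 were on the chip, and miR-34a, miR-181a and miR-199a were bright enough to be tested in lung, heart and spleen. miR-181a fell in lung (-0.34 ± 0.09, SE, limma adjusted p = 0.0411), where 7.96% of probes were called, but was at 0.12 with median scaling and at 0.32 without scaling. In heart, where 5% of probes were called, and in spleen, where 30.2% were, 0 of 3 were called by limma, with an unadjusted p under 0.05 for 0 in heart and for 2 in spleen, and in liver 0 reached the minimum signal. In kidney the 3 had a median log2 difference of 0.17, from 0.03 for miR-181a to 0.34 for miR-34a, beside 0.018 for all 91 probes. miR-34a, a target of p53, was 99 and 105 in klotho(-/-) kidneys, against 41 and 49 in wild-type kidneys.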

How the data were processed

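Small RNA of single tissues had been labelled with 1 dye and hybridized to a chip of 200 probes. The authors deposited 2 tables of fluorescence intensity. The first holds signals before background subtraction, whose minimum per array was 16.5 to 21.4. In the second a constant of 16.7 to 21.6 per array had been subtracted, values rounded, and low values set to a floor of 1 to 3. Signals and shares in the text are from the second table, and ratios, multiples and log2 values from the first. Scanner software is not given in the sources used here.

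The first table was corrected with normexp (limma 3.58.1, R 4.3.3, offset 50), brought to common quantiles within each tissue and taken to log2, which draws differences of dim probes toward 0. Probes with a mean signal of at least 10 in a tissue were tested. One limma model (eBayes with trend, 10 residual degrees of freedom) covered 10 groups, so the spread is pooled over tissues. Tissue levels used quantile normalization over 20 arrays. The threshold was an adjusted p of 0.05. With 2 mice per group, p-values rest on a spread pooled over the 10 groups and drawn toward that of other probes (eBayes). Equal ranks lower that spread, so it is not the spread between the mice of 1 tissue. The number of arrays limits precision. The steps were tested on simulated data. Besides miR-22, the text names the 5 probes most like it, the 3 above and 3 below it in kidney signal, and members of 1 target list and 8 marker lists (another list is not reported here); miR-192, miR-291a-3p, miR-103 and the kidney probes with a ratio below 1 were named after their values were seen. The probe and lists were chosen with earlier results of these data known.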

Additional observations from a re-analysis of the deposited data

How the results depend on the processing

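Outside the kidney miR-22 was not called in lung, liver, heart, spleen or their mean, nor by the F test, under any alternative: the second table, common quantiles of all 20 arrays, median scaling or none, offsets of 10 and 100, no filter, a minimum signal of 30, a replicate block, a random block for the mouse, or leaving out each array. The same held for each of the 4 tissues fitted alone and, for lung, liver and heart, without the spleen arrays. Its sign turned in heart with median scaling (-0.057) and without scaling (-0.086), and on leaving out 1 array it ran from -0.074 to 0.21 in lung and from -0.15 to 0.14 in spleen. The causes were not tested. Where 1 array remained in a group, its spread was taken from the rest.

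The kidney difference of -0.59 was -0.45 with median scaling and -0.072 without scaling, and from -0.70 to -0.43 on leaving out 1 kidney array.

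Arrays of 1 number in both genotypes deviated together across probes, with r of 0.107 in heart to 0.548 in liver, and the labels do not say what arrays of the same number share. With the replicate block the mean of 4 tissues was 0.04 (limma adjusted p = 0.554), and it changed no call of miR-22.

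Of the tissue levels, lung turned to 0.0026 with median scaling over all arrays and to 1.10 without scaling (a call in the other direction), and liver to 0.27 (not called) and to -0.57. Kidney was 0.42 without scaling (limma adjusted p = 0.167), and 0.23 to 0.57 on leaving out 1 array. Heart was 0.42 in wild-type arrays alone (0.0955), 1.27 with median scaling and 1.11 without scaling. Between neighbouring tissues, in fits chosen after seeing the data, liver minus heart was -0.79 with median scaling and -1.34 without scaling, heart minus kidney 0.69 with median scaling (called), and kidney minus lung 0.32 with median scaling (not called) and -0.55 without scaling. The causes were not tested. Spleen was called lower under all 30 alternatives, from -2.06 to -1.47. miR-22 was well above background on all arrays.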

Other observations

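The 9 kidney probes with a mean signal lower in klotho(-/-) than in wild-type mice before scaling were miR-22, miR-194, miR-192, miR-144, miR-146, miR-146b, miR-185, miR-301 and miR-291a-3p, chosen after their values were seen and given without a test. miR-194 and miR-192, epithelial miRNAs made from shared transcripts, were both lower on both klotho(-/-) arrays. miR-192 was 30 and 30 in klotho(-/-) kidneys, against 35 and 38 in wild-type kidneys, a ratio of 0.810. miR-146, which dampens innate immune signalling, was 14 and 13 in klotho(-/-) kidneys, against 23 and 16 in wild-type kidneys (ratio 0.691). miR-291a-3p, a miRNA of embryonic stem cells, was 2 and 3 in klotho(-/-) kidneys, against 4 and 45 in wild-type kidneys, so its ratio of 0.119 came from wild-type Kidney 2 alone. The other dim probes miR-301 and miR-146b lay at 11 to 22, with ratios of 0.934 and 0.941. miR-22 was the brightest of the 9, and miR-194 the next.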
